A study of Mus musculus with 3 samples.

Results

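Cells at the 2 ends of a mesenchymal ranking were compared within 3 mouse brain tumours, profiled one cell at a time. The ranking score of a cell was the sum of Lgals1, S100a6, S100a11, Vim, Anxa2 and Tm4sf1 per 10,000 of its unique molecular identifiers (UMIs, each standing for 1 captured transcript). Cells were thus chosen by measured levels of these 6 genes: in each tumour the 10% with the highest score (the high group) and the 10% with the lowest (the low group) were taken. This gave 260 mesenchymal-high and 260 mesenchymal-low cells of 2614 ranked cells, among 9642 cell barcodes in all. Tumour 1 gave 141 cells to each group, tumour 2 gave 13 and tumour 4 gave 106. Before ranking, cells were kept with at least 500 genes, at most 20% mitochondrial UMIs and, per 10,000 UMIs, under 3 of 6 cycling genes, under 3 of 6 myelin genes and under 15 of 6 myeloid genes. These limits left 41.7% of the barcodes of tumour 1, 8.39% of tumour 2 and 23.03% of tumour 4.

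The 3 tumours form 1 group, so that the comparison lies between cells of the same animal. All 3 animals carried, on 1 allele, the Luo reporter at Gt(ROSA)26Sor with its ACTB-tdTomato,-EGFP cassette on a B6.129(Cg) background, which marks cells with green instead of red fluorescence once it has been switched. Their brains were electroporated on postnatal day 1 or 2 with MADR constructs, and the genotype is given as H3f3a K27M, Pdgfra D842V and Trp53 R270H, that is, altered forms of histone H3.3, a growth factor receptor and the p53 tumour suppressor. Tumours 1, 2 and 4 were collected at postnatal days 150, 106 and 149. GFP-positive cells were sorted from the dissociated tumours and run on a droplet-based 3′ assay. Which promoter drives each construct and which of them carries the WPRE element, the only transgene sequence in the tables, could not be read from the labels.

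In glioma, the mesenchymal state is a transcriptional state that tumour cells can enter and leave, known for cytoskeletal, calcium-binding and wound-response transcripts and often set against states that resemble neural progenitors or oligodendrocyte progenitor cells (OPCs). Vimentin (Vim) is an intermediate filament protein, S100a6 and S100a11 are small calcium-binding proteins, and annexin A2 (Anxa2) binds membrane phospholipids together with S100 proteins. Galectin-1 (Lgals1) binds sugar chains at the cell surface, and Tm4sf1 is a 4-pass membrane protein. The factors associated with this state in glioma include STAT3, C/EBP-beta and members of AP-1, a family of dimers of Fos and Jun proteins.

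Promoters of some ranking genes, and of the called gene AA467197 described below, are shown. These genes set the ranking or rose with it, while Fosb, which encodes an AP-1 subunit, was lower at its top. The AP-1 motif is TGANTCA, which reads the same on both strands. It lay in 2565 of 32851 RefSeq promoter windows of 300 bases (7.81%), in 155 of those of the 2326 tested genes that matched a window (6.66%), and in 2 of the 5 ranking genes with a window, S100a11 and Anxa2. Among the genes called below, it lay in 1 of the 8 higher genes with a window, AA467197, and in 0 of the 2 lower ones. The motifs TEAD (GGAATG), EGR, GAS (TTCNNNGAA) and NFI were searched as well and lay in 0 of the 5 ranking genes. TEAD lay in 2 of the 8 higher genes (Il33 and Timp1), 1 of the 2 lower ones (Cntn1) and 13.8% of tested genes. GAS and NFI lay in 0 of these called genes. A match describes letters and not a bound site. All ranking and called genes with an AP-1 match are shown. Of those without one only S100a6 is shown, and not the ranking genes Vim and Tm4sf1. The windows run from 250 bases before to 50 bases after the RefSeq start in GRCm38.p6, 5′ to 3′ on the gene's strand, with AP-1 matches in capitals. They are S100a11 at chr3:93520246-93520545 (plus strand), Anxa2 at chr9:69453433-69453732 (plus strand), AA467197 at chr2:122637637-122637936 (plus strand) and, without a match, S100a6 at chr3:90612644-90612943 (plus strand).
S100a11: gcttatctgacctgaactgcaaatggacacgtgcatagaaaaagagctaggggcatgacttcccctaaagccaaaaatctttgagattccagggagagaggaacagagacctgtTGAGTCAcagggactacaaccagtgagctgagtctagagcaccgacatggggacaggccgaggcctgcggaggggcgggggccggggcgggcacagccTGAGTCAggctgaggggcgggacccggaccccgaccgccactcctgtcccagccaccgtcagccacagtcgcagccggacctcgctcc
Anxa2: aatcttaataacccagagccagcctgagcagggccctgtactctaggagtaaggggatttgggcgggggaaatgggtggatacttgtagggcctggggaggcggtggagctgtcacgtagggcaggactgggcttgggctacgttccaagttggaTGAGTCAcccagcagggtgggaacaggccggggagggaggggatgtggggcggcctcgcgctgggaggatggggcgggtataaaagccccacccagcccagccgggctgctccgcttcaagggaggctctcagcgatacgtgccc
AA467197: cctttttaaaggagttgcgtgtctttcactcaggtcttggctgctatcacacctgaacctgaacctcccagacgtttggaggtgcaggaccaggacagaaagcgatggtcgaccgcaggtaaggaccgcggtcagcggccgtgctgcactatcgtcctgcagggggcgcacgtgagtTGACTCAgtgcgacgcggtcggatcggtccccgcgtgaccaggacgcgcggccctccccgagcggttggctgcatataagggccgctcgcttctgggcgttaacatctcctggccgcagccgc
S100a6: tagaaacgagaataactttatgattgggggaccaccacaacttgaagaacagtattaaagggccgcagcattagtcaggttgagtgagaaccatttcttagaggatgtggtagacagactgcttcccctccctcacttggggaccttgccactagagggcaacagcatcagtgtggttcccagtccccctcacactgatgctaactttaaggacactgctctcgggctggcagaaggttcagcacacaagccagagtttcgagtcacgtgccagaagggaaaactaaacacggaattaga

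Values that chose the cells are a description and carry no test. The lowest score in the high group was 69.2 per 10,000 in tumour 1, 36.6 for tumour 2 and 111.1 for tumour 4, and the next cell below it had 69.2, 35.7 and 111.0. The highest score in the low group was 17.2, 1.94 and 34.0, with 17.2, 1.98 and 34.0 in the next cell above. The score is a range with no gap at either limit. Its median over the ranked cells between the groups was 35.7, 12.2 and 64.4, so the high group of tumour 2 began near the middle of tumour 1. Vim was at 430 CPM (its UMIs scaled to a common total for each summed group) in the low and 3694 CPM in the high group of tumour 1, at 0 and 1451 CPM for tumour 2, and at 634 and 2886 CPM for tumour 4. A Vim UMI was seen in 131 of the 141 low and 139 of the 141 high cells of tumour 1, while its summed UMIs were 623 and 6379, so the difference there lay in the amount per cell. Lgals1 went from 406 to 2433 CPM, from 14.5 to 1262 CPM and from 736 to 4516 CPM in the same order, and S100a6 from 390 to 2093 CPM, from 87.3 to 1776 CPM and from 733 to 5776 CPM.

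Tumour 2 had the fewest cells and UMIs. Without the 6 ranking genes, the groups held 1449052 (low) and 1726911 (high) UMIs in tumour 1, 68738 and 110936 for tumour 2, and 988018 and 1062941 for tumour 4. A single UMI was therefore worth 14.5 CPM in the low and 9.01 CPM in the high group of tumour 2. In its high group, 1 barcode with 32805 UMIs (the next had 14200) gave 29.4% of the summed UMIs and also had the highest score, 68.6 per 10,000. That barcode had 5 WPRE UMIs, 1.56% mitochondrial UMIs and, per 10,000 UMIs, 57.6 of a list of oligodendrocyte genes, 5.18 of OPC genes and 0.305 of ependymal markers. The ranked cells of tumour 2 together had 81.8, 44.4 and 2.73 of these lists. The barcode also had 39.6 of neuronal and neuroblast genes, 29.3 of astrocyte genes and 5.79 of the 6 myeloid genes, against 25.8, 43.3 and 6.44 in the ranked cells. Whether it holds 1 cell was not tested. The low group of tumour 1 held 1 barcode with 80.2% haemoglobin UMIs. Libraries of tumours 1 and 2 shared 6 barcode sequences, those of 1 and 4 shared 20, and those of 2 and 4 shared 11, and no doublet caller was run.

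Each ranking gene was next measured while the other 5 ranked the cells, which asks whether the 6 transcripts move together in cells that the gene itself did not choose. Lgals1 and S100a11 were higher in the high group in this test, and S100a6 showed no shared direction. Lgals1 was at 808 CPM in the low and 1528 CPM in the high group of tumour 1, at 291 and 762 CPM in tumour 2, and at 1326 and 3533 CPM in tumour 4. Its log2 fold change was 1.13 ± 0.23 (SE, edgeR's quasi-likelihood test with tumours as pairs, Benjamini-Hochberg adjusted p = 0.0393 over 2814 genes), and it was higher in 3 of 3 tumours. S100a11 was at 63.5 and 134 CPM in tumour 1, 0 and 281 CPM in tumour 2, and 78.0 and 356 CPM in tumour 4, with a log2 fold change of 1.78 ± 0.33 (edgeR adjusted p = 0.0214). For both genes the low group lay under the high group in each of the 3 tumours.

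The other 4 ranking genes did not pass the same test. Anxa2, at 0 UMIs in the low group of tumour 2, had a log2 fold change of 1.69 ± 0.33 (edgeR adjusted p = 0.0654), Tm4sf1 one of 1.72 ± 0.48 (adjusted p = 0.169) and Vim one of 0.79 ± 0.27 (adjusted p = 0.388). S100a6 was at 1167 and 1036 CPM in tumour 1, 1444 and 849 CPM in tumour 2, and 1820 and 3072 CPM in tumour 4, so its direction differed between tumours, and its log2 fold change was -0.04 ± 0.30 (adjusted p = 0.988). Without tumour 1 the call of S100a11 was lost (adjusted p = 0.329) and so was that of Lgals1 (0.323), and without tumour 4 both were lost as well (0.548 and 0.483). Without tumour 2, Lgals1 and S100a11 kept their calls (edgeR adjusted p = 0.0274 and 1.37e-11), and Anxa2 and Tm4sf1 passed (5.91e-08 and 1.01e-05). Without tumour 4 Tm4sf1 passed (0.00939). S100a6 thus went against the label in tumours 1 and 2, and the cells are called here by their place in the ranking.

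**Figure D1:**
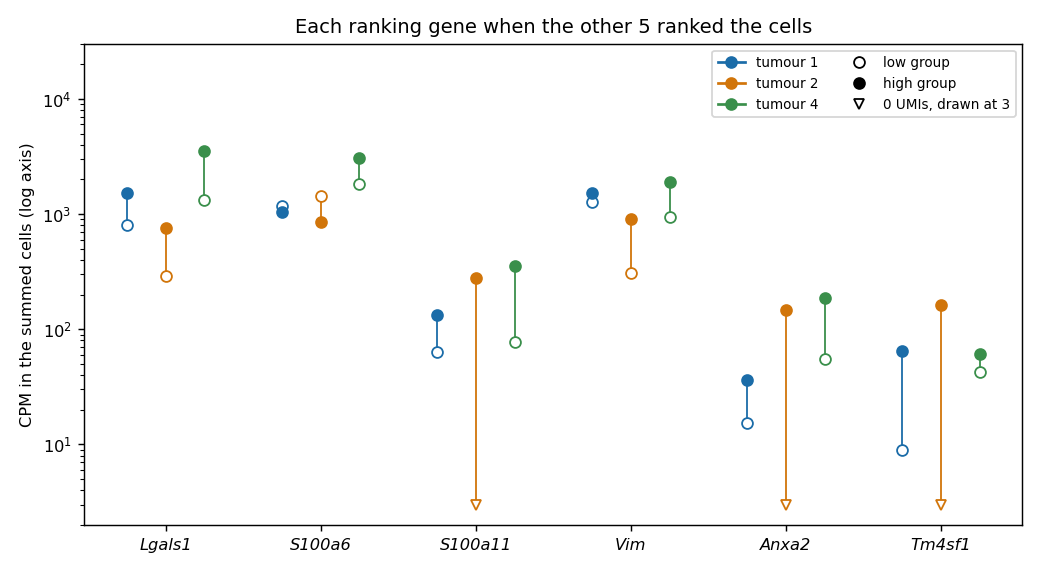
CPM (log axis) of each of the 6 ranking genes in the low group (open circles) and high group (filled circles) of tumours 1, 2 and 4 when the other 5 genes ranked the cells; an open triangle stands for 0 UMIs. Lgals1 and S100a11 lie higher in the high group of every tumour, and S100a6 is lower in the high group of tumours 1 and 2 and higher in that of tumour 4.

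With all 6 ranking genes used for the ranking and left out of the test, 13 of 3002 genes tested differed between the groups over the 3 tumours, 0.433% of the genes tested. A gene was tested with at least 10 UMIs over both groups in each tumour and called at an adjusted p under 0.05 (edgeR). The 10 called higher (0.333%) included the alarmin Il33, galectin-3, AA467197, annexin A5, transferrin, the matrix proteins Sparc and Timp1, gelsolin and Mfge8. The 3 called lower (0.0999%) were Igfbpl1, the AP-1 gene Fosb and the adhesion protein Cntn1. All 13 moved in their direction in 3 of 3 tumours, but without tumour 1 no gene was called (127 at an unadjusted p under 0.05) and without tumour 4 only 2 were called, both higher. With the thinly filled tumour 2 left out, 173 genes were called higher and 65 lower of 9974 tested (1.73% and 0.652%, 2.39% in all), the 13 genes among them. The spread then rests on 2 pairs. With no filter on low counts 124 of 16330 genes were called higher and 39 lower (0.759% and 0.239%, 0.998% in all). At an unadjusted p under 0.05, 6.70% of the 3002 genes were higher and 5.20% lower.

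The barcode with 32805 UMIs gave most of the tumour 2 UMIs of 7 of the 10 higher genes. Without it, 6 of the 10 fell under 10 UMIs in tumour 2 and could not be tested, and of 2318 genes tested 5 were called higher and 3 lower. Anxa5, Sparc, Gsn, Igfbpl1, Fosb and Cntn1 kept their calls, with edgeR adjusted p between 0.0256 and 0.0460, and Trf had an adjusted p of 0.0522. Il33, Lgals3, AA467197, Timp1 and Mfge8 could thus be tested over 3 tumours only with this barcode, and their calls in tumours 1 and 4 do not involve it.

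**Figure D2:**
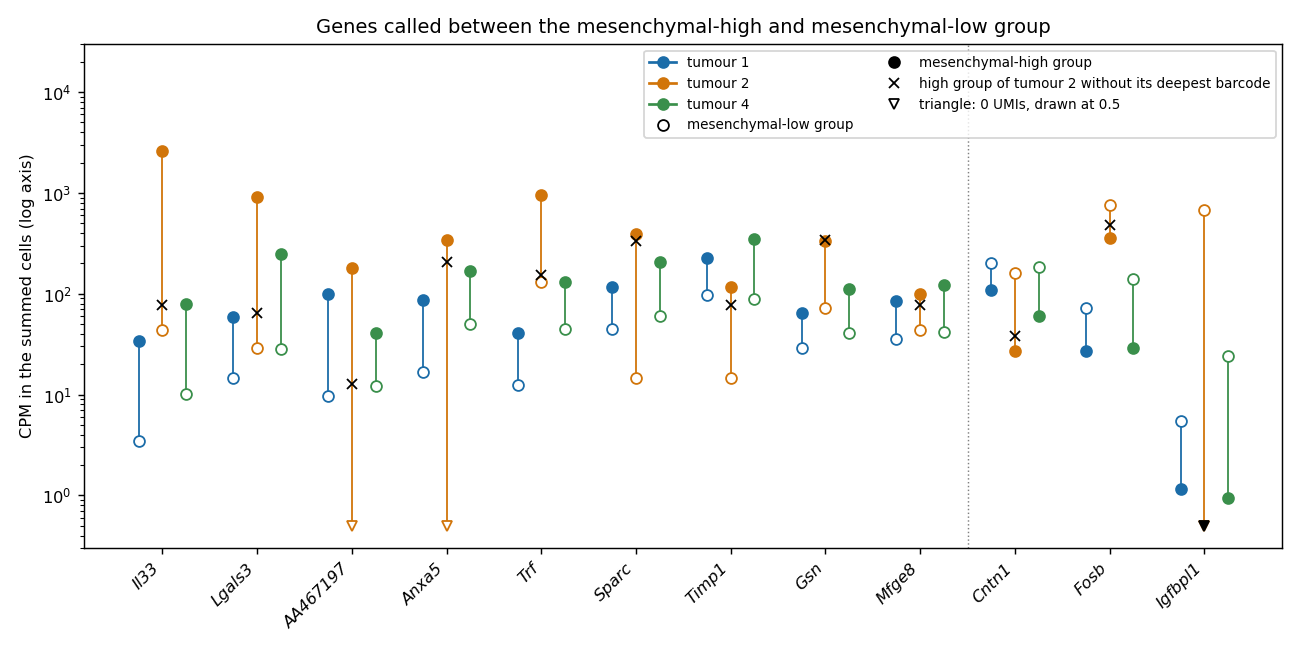
CPM (log axis) of 12 called genes in the low group (open symbols) and high group (filled symbols) of tumours 1, 2 and 4, with 9 higher genes left of the dotted line. Crosses give the high group of tumour 2 without its deepest barcode, and triangles stand for 0 UMIs; the cross of Il33 lies at 76.6 CPM against 2623 CPM with that barcode.

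The largest fitted changes among the higher genes were those of Il33 and Lgals3. Il33 (chr19:29925114-29960718), a cytokine of the interleukin-1 family that is kept in the nucleus and released on damage, was at 3.45 CPM in the low and 34.2 CPM in the high group of tumour 1, at 43.6 and 2623 CPM in tumour 2, and at 10.1 and 80.0 CPM in tumour 4. Its log2 fold change was 3.95 ± 0.44 (edgeR adjusted p = 0.00688), and 3.16 ± 0.37 in tumours 1 and 4 alone (adjusted p = 1.74e-14). In tumour 2, 285 of its 291 UMIs came from the deepest barcode, and the remaining cells had 76.6 CPM. The level was higher in the high group of each tumour. Lgals3 (chr14:47367751-47386160), which encodes galectin-3, a sugar-binding protein of damaged and migrating cells, was at 14.5 and 59.1 CPM in tumour 1, 29.1 and 901 CPM in tumour 2, and 28.3 and 249 CPM in tumour 4. Its log2 fold change was 2.93 ± 0.35 (adjusted p = 0.00688), or 2.73 ± 0.26 in tumours 1 and 4, and 95 of its 100 UMIs in tumour 2 lay in the same barcode.

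Anxa5 and Mfge8 were also called higher. Anxa5 (chr3:36448923-36475894), a calcium-dependent phospholipid-binding protein, was at 16.6 and 86.3 CPM in tumour 1 and at 50.6 and 169 CPM in tumour 4. In tumour 2 it had 0 UMIs in the low group and 343 CPM in the high group, at least 7.85-fold higher when the low group is set to its limit of 3 UMIs. Without the deepest barcode the high group of tumour 2 still had 204 CPM, and over 3 tumours the log2 fold change was 2.22 ± 0.35 (edgeR adjusted p = 0.0295), a fitted value that depends on how a count of 0 is treated. Mfge8 (chr7:79133768-79149060), a secreted protein that links exposed phosphatidylserine to integrins on phagocytes, was at 35.9 and 85.1 CPM, 43.6 and 99.2 CPM, and 41.5 and 123 CPM in tumours 1, 2 and 4. Its log2 fold change was 1.35 ± 0.25 (adjusted p = 0.0482), the smallest among the higher genes.

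The matrix and cytoskeleton genes among the calls were Sparc, Timp1 and Gsn. Sparc (chr11:55394500-55423183), a collagen-binding protein of the pericellular matrix, was at 44.9 and 118 CPM in tumour 1, 14.5 and 388 CPM in tumour 2, and 59.7 and 205 CPM in tumour 4, with a log2 fold change of 1.77 ± 0.31 (edgeR adjusted p = 0.0482). It had 332 CPM in tumour 2 without the deepest barcode. Timp1 (chrX:20870166-20874735), a secreted inhibitor of matrix metalloproteinases, was at 98.0 and 229 CPM, 14.5 and 117 CPM, and 88.1 and 349 CPM in the 3 tumours, with a log2 fold change of 1.61 ± 0.26 (adjusted p = 0.0322). Gsn (chr2:35256380-35307892) encodes gelsolin, which severs and caps actin filaments. It was at 29.0 and 64.9 CPM, 72.7 and 334 CPM, and 40.5 and 111 CPM, with a log2 fold change of 1.40 ± 0.25 (adjusted p = 0.0482), and the high group of tumour 2 kept 345 CPM without the deepest barcode.

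Trf and AA467197 drew most of their tumour 2 UMIs from the deepest barcode. Trf (chr9:103204001-103230444), the iron carrier transferrin, which oligodendrocytes make in the brain, was at 12.4 and 41.1 CPM in tumour 1, 131 and 956 CPM in tumour 2, and 44.5 and 130 CPM in tumour 4, with a log2 fold change of 1.89 ± 0.27 (edgeR adjusted p = 0.0258). A few cells weighed heavily in Trf, since 94 of 106 UMIs in the high group of tumour 2 and 73 of 138 in that of tumour 4 came from 1 cell each, and without these cells the levels were 153 and 62.0 CPM. AA467197 (chr2:122636986-122641191), also known as Nmes1, encodes a small mitochondrial protein. It was at 9.66 and 99.0 CPM in tumour 1, 0 and 180 CPM in tumour 2 and 12.1 and 40.5 CPM in tumour 4, with a log2 fold change of 2.78 ± 0.44 (adjusted p = 0.0295). In tumour 2 it was at least 4.13-fold higher against the limit of 3 UMIs, and 19 of its 20 UMIs there came from the deepest barcode.

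The 3 genes called lower are known from neural progenitors, neurons and stimulated cells. Cntn1 (chr15:92051165-92341967), an immunoglobulin-type adhesion protein anchored in the membrane of neurons and oligodendrocyte progenitors, was at 200 and 108 CPM in tumour 1, 160 and 27.04 CPM in tumour 2, and 182 and 60.2 CPM in tumour 4. Its log2 fold change was -1.34 ± 0.25 (edgeR adjusted p = 0.0482), and the levels of the low groups lay within a narrow range in the 3 tumours. Fosb (chr7:19302696-19310051), a Fos-family subunit of AP-1, was at 72.5 and 27.2 CPM, 756 and 361 CPM, and 141 and 29.2 CPM, with a log2 fold change of -1.63 ± 0.25 (adjusted p = 0.0295). Igfbpl1 (chr4:45809468-45826923), a secreted protein of the insulin-like growth factor-binding family that newborn neurons express, had 8 UMIs in the low and 2 in the high group of tumour 1, 47 and 0 for tumour 2, and 24 and 1 for tumour 4. In tumour 2, at 684 CPM in the low group, it was at least 25.3-fold lower in the high group against the limit of 3 UMIs, and the edgeR adjusted p was 0.0482.

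Neuronal and neuroblast markers were measured beside Igfbpl1. The summed level of 20 such markers was 58.6 per 10,000 UMIs in the low and 22.5 in the high group of tumour 2, against 25.4 and 31.8 in tumour 1 and 38.5 and 42.9 in tumour 4, and 2 and 3 of the 20 were at 0 in the low and high group of tumour 2. The neuroblast transcription factor Sox11 was at 1658 and 541 CPM there, and Stmn2, a microtubule protein of young neurons, at 364 and 0 CPM. Other members were higher in the same high group, the growth-cone protein gene Gap43 at 131 and 478 CPM and the neurofilament gene Nefl at 0 and 505 CPM. Their part in the result was not tested.

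Levels of the called genes over 10 classes of the score, from the lowest (class 1) to the highest (class 10), show where along the ranking each gene changed. Timp1 in tumour 4 was at 87.5 CPM in class 1, at 83.3 to 211 CPM in the 8 middle classes and at 349 CPM in class 10. Anxa5 in tumour 4 went from 50.7 CPM in class 1 to 169 CPM in class 10, with 57.3 to 112 CPM between. Timp1, Anxa5 and Lgals3 had their highest level in class 10 in each of the 3 tumours. Class 10 holds the same cells as the high group, so its level is not separate support for the calls. In tumour 2 Timp1 was at 117 CPM in class 10, where 7 of its 13 UMIs came from the deepest barcode. Without that barcode 76.6 CPM remained, under the 88.9 CPM of class 8. In tumour 2 Lgals3 was at most 48.8 CPM in the 8 middle classes and 901 CPM in class 10, where the deepest barcode lies. Sparc in tumour 1 peaked in class 9, at 181 CPM against 118 CPM in class 10, and Mfge8 in tumour 4 peaked in class 8, at 173 CPM against 123 CPM. Fosb and Cntn1 had their lowest level in class 10 in tumours 1 and 4. Cntn1 did so in tumour 2 as well, at 27.04 CPM.

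**Figure D3:**
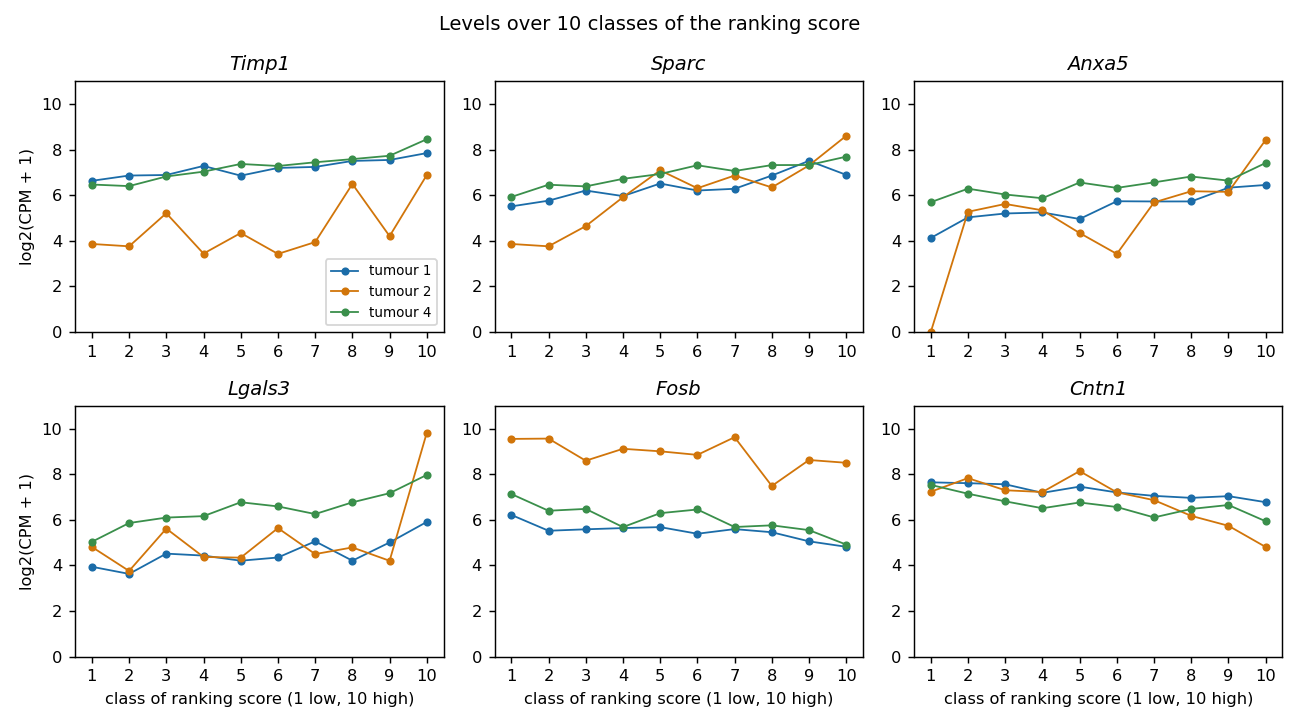
Level of 6 called genes, as log2(CPM + 1), in 10 classes of the ranking score in tumours 1, 2 and 4 (1 line per tumour, about 10% of the ranked cells per point). Timp1, Anxa5 and Lgals3 are highest in class 10 in all 3 tumours, Sparc peaks in class 9 in tumour 1 (181 CPM), and Fosb and Cntn1 are lowest in class 10 in tumours 1 and 4. Without the deepest barcode, which the points include, Timp1 in class 10 of tumour 2 is at 76.6 CPM, under class 8 at 88.9 CPM.

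Gene lists for related programmes are described by how many members were called, beside 0.333% called higher and 0.0999% called lower of all genes over 3 tumours and 1.73% and 0.652% in tumours 1 and 4. The median log2 fold change of all genes was -0.02 in the first fit and -0.01 in the second. Counts by DESeq2 and limma, where given, are for the 3 tumours. DESeq2 called 23 of all 3002 genes higher and 7 lower, and 1222 of them had no adjusted p. Since limma called 0 of all 3002 genes, a count of 0 by limma says nothing about a list. Of a list of 30 further mesenchymal-state genes, 18 could be tested over 3 tumours, and 3 were called higher (Lgals3, Sparc and Timp1) and 0 lower, with 13 higher at an unadjusted p under 0.05 and a median of 1.08. In tumours 1 and 4, 15 of 26 tested members were called higher and 0 lower, with a median of 0.92. Their summed level was 30.4 per 10,000 UMIs in the low and 58.3 in the high group of tumour 1, 28.2 and 88.8 for tumour 2, and 61.1 and 92.7 for tumour 4. Cd44, the hyaluronan receptor, rose in tumours 1 and 4 by 1.15 ± 0.28 on the log2 scale (edgeR adjusted p = 0.00375), and so did the secreted phosphoprotein Spp1 (osteopontin), by 2.24 ± 0.29 (2.79e-11). Cd63, a lysosomal and exosomal membrane protein, was at 506 and 1106 CPM in tumour 1 but at 1687 and 1704 CPM in tumour 4, and did not pass the test (adjusted p = 0.322 over 3 tumours and 0.387 in tumours 1 and 4).

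The S100, annexin and galectin genes outside the ranking were mostly higher in the high group. Over 3 tumours 2 of 11 tested members were called higher, Anxa5 and Lgals3, and 0 lower, with 10 of 11 higher at an unadjusted p under 0.05 and a median of 1.06. In tumours 1 and 4, 11 of 15 were called higher, with a median of 1.05. S100a3 had the largest change there, at 20.7 and 53.9 CPM in tumour 1 and 18.2 and 558 CPM in tumour 4 (log2 fold change 3.32 ± 0.28, edgeR adjusted p = 4.14e-29), and in tumour 2 it had 1 UMI in each group. S100a13, at 146 and 314 CPM in tumour 1 and 188 and 738 CPM in tumour 4, rose by 1.58 ± 0.26 (adjusted p = 2.75e-07). S100a4 was at 6.90 and 28.4 CPM and at 7.08 and 32.9 CPM (log2 fold change 2.14 ± 0.41, adjusted p = 3.43e-05). S100a10, S100a16 and Lgals3 stand in both this list and that of mesenchymal-state genes.

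The matrix and adhesion list had a larger share of members called higher than all genes. The actin cytoskeleton list gave 0 calls over 3 tumours and 1 in tumours 1 and 4. With 0.333% and 1.73% of all genes called higher in these fits, such counts say little about the actin list. At an unadjusted p under 0.05 (edgeR), 6.70% of all genes were higher over 3 tumours. Of 12 matrix and adhesion genes tested over 3 tumours, 2 were called higher, Sparc and Timp1, and 0 lower (6 and 1 at an unadjusted p under 0.05, median 0.72). In tumours 1 and 4, 4 of 21 were called higher, with Cd44 and the tetraspanin Cd151 in addition. Of 18 actin cytoskeleton genes 0 were called by edgeR, DESeq2 or limma over 3 tumours, with 6 higher at an unadjusted p under 0.05, and 1 of 26 was called in tumours 1 and 4, the actin-binding Tagln2 (0.87 ± 0.25, adjusted p = 0.0294). The most abundant actin genes varied by tumour, with Tmsb4x at 3894 and 6583 CPM in tumour 1 and 9406 and 5967 CPM in tumour 4.

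**Figure D4:**
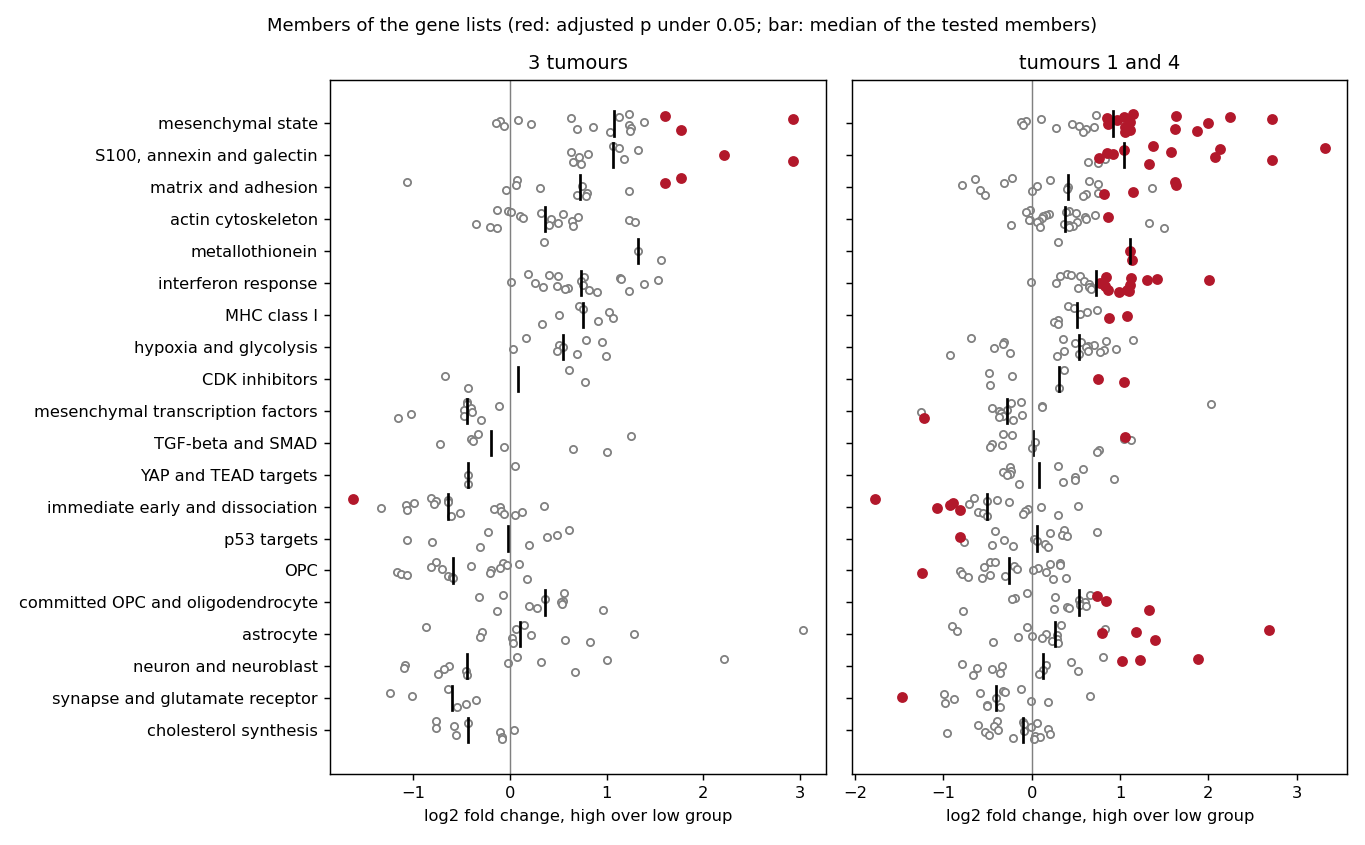
Log2 fold change, high over low group, of every tested member of 20 gene lists over the 3 tumours (left) and in tumours 1 and 4 (right). Filled red points passed an adjusted p under 0.05 and bars give the median of the tested members; the medians of the mesenchymal-state list are 1.08 and 0.92 and those of the immediate early list -0.64 and -0.51.

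No transcription factor of a list known for the mesenchymal state was called higher. With 0.333% of all genes called higher over 3 tumours and 1.73% in tumours 1 and 4, 0 calls say little about such short lists. The same holds for the other counts of 0 called genes in this paragraph. Of 20 such factors 19 were in the tables under 1 symbol and 10 could be tested over 3 tumours, with 0 called by edgeR, DESeq2 or limma, 0 higher and 1 lower at an unadjusted p under 0.05, and a median of -0.45. In tumours 1 and 4, 0 of 15 were called higher and 1 lower, Klf4 (-1.22 ± 0.27, adjusted p = 0.000566). Zeb2, the most abundant with Klf6, was at 120 and 101 CPM in tumour 1, 175 and 180 CPM in tumour 2, and 228 and 151 CPM in tumour 4. Of 3 tested targets of the YAP and TEAD growth-control factors 0 were called over 3 tumours by edgeR, DESeq2 or limma (0 at an unadjusted p under 0.05), and 0 of 12 by edgeR in tumours 1 and 4 (1 at an unadjusted p under 0.05). Of 8 TGF-beta and SMAD genes 0 were called over 3 tumours by these tools (2 at an unadjusted p under 0.05), and the collagen-binding target Tgfbi was called in tumours 1 and 4 (1.06 ± 0.30, adjusted p = 0.0226).

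Immediate early genes, which cells switch on within minutes of a stimulus and also during dissociation, had the opposite direction. Over 3 tumours 1 of 19 tested members was called lower, Fosb, and 0 higher, with 10 lower at an unadjusted p under 0.05 and a median of -0.64. In tumours 1 and 4, 5 of 19 were called lower. Egr1, a zinc-finger transcription factor, was at 739 and 425 CPM in tumour 1, 2691 and 1316 CPM in tumour 2, and 852 and 405 CPM in tumour 4 (log2 fold change -0.997 ± 0.20, edgeR adjusted p = 0.0763, and 0.0385 in tumours 1 and 4). Fos was at 777 and 583 CPM, 4393 and 2281 CPM, and 2065 and 1041 CPM, and did not pass (adjusted p = 0.137). The low group lay above the high group for Egr1, Fos and Ier2 in all 3 tumours, and the EGR motif GCGNGGGCG, searched on both strands, lay in the promoter window of Fosb and in 5.55% of all windows (13.03% of those of tested genes).

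Of the genes called higher in tumours 1 and 4, 12 were interferon-response genes and 2 were MHC class I genes. Of 24 interferon-response genes tested there, 12 were called higher and 0 lower, with a median of 0.72. Over 3 tumours 0 of 19 were called by edgeR (10 higher at an unadjusted p under 0.05, median 0.73), 3 by DESeq2 and 0 by limma. Gbp2, an interferon-induced GTPase, was at 50.4 and 511 CPM in tumour 1 and 364 and 607 CPM in tumour 4 (2.01 ± 0.27, edgeR adjusted p = 2.09e-10), and Isg15, a ubiquitin-like protein, at 78.7 and 374 CPM and at 387 and 571 CPM (1.42 ± 0.26, adjusted p = 8.73e-06). The larger difference was in tumour 1, where the summed list went from 28.1 to 75.3 per 10,000 UMIs, against 81.3 to 100.1 in tumour 4. Of 10 MHC class I genes 2 were called higher in tumours 1 and 4, the peptide-loading factor Tapbp and the non-classical H2-T23, while H2-D1 (edgeR adjusted p = 0.575) and the light chain gene B2m (0.397) did not pass. Over 3 tumours 0 of 7 were called by edgeR or limma and 1 by DESeq2 (5 higher at an unadjusted p under 0.05).

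Metallothioneins and cell-cycle inhibitors gave 2 calls each in tumours 1 and 4, and hypoxia and glycolysis genes 0. The metal-binding metallothioneins Mt2 and Mt3 were called higher in tumours 1 and 4 (1.11 ± 0.23 and 1.14 ± 0.26, edgeR adjusted p = 0.000189 and 0.00101), while Mt1 was at 266 and 459 CPM in tumour 1 and 488 and 398 CPM in tumour 4. Of 9 hypoxia and glycolysis genes tested over 3 tumours 0 were called by edgeR or limma and 1 by DESeq2 (5 higher at an unadjusted p under 0.05, median 0.55), and 0 of 21 by edgeR in tumours 1 and 4 (10 at an unadjusted p under 0.05). The glycolytic enzyme Gapdh was at 592 and 1034 CPM, 262 and 1118 CPM, and 761 and 1191 CPM in the 3 tumours. Cdkn2a, which encodes the cell-cycle inhibitors p16 and p19Arf, was at 130 and 244 CPM in tumour 1, 0 and 99.2 CPM in tumour 2, and 197 and 278 CPM in tumour 4, and was called higher in tumours 1 and 4 alone (0.75 ± 0.22, adjusted p = 0.0368). Its neighbour Cdkn2b was called there as well (1.05 ± 0.29, adjusted p = 0.0173). Of 9 cholesterol synthesis genes 0 were called over 3 tumours by edgeR, DESeq2 or limma (0 at an unadjusted p under 0.05), and 0 of 18 by edgeR in tumours 1 and 4 (3 lower at an unadjusted p under 0.05). With 0.433% and 2.39% of all genes called in these fits, 0 calls say little about this list or the hypoxia and glycolysis list. Of 8 p53 targets tested over 3 tumours 0 were called by edgeR or limma and 1, lower, by DESeq2 (2 lower at an unadjusted p under 0.05). Of 15 tested in tumours 1 and 4, 1 was called, the antiproliferative Btg2, which was lower (-0.81 ± 0.23, edgeR adjusted p = 0.0199) and also stands in the immediate early list.

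Of 17 OPC identity genes tested over 3 tumours 2 had a positive log2 fold change, and 8 of 20 did in tumours 1 and 4. With 0.433% of all genes called over 3 tumours, 0 calls among 17 say little about this list. Over 3 tumours 0 of 17 were called by edgeR, DESeq2 or limma (4 lower at an unadjusted p under 0.05, median -0.59), and in tumours 1 and 4, 1 of 20 was called, the secreted C1ql1, which was lower (-1.24 ± 0.29, edgeR adjusted p = 0.00152). The lineage factor Olig2 was at 206 and 213 CPM, 204 and 189 CPM, and 302 and 365 CPM in tumours 1, 2 and 4. Pdgfra, the receptor whose altered form is part of the model and whose endogenous and transgenic reads cannot be told apart here, was at 153 and 89.2 CPM, 175 and 9.01 CPM, and 76.9 and 69.6 CPM (log2 fold change -0.76 ± 0.35, adjusted p = 0.418). The level of Pdgfra lay lower in the high group in each tumour without passing the test. Of 6 synapse and glutamate receptor genes 0 were called over 3 tumours by the 3 tools (4 lower at an unadjusted p under 0.05), and the glutamate receptor Grm5 was called lower in tumours 1 and 4 (-1.47 ± 0.41, adjusted p = 0.0179).

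Markers of other glial classes were partly higher in tumours 1 and 4. Of 17 genes of committed OPCs and oligodendrocytes 3 were called higher, Bcas1, the myelin gene Mbp and the prostaglandin synthase Ptgds, and their summed level was 12.8 per 10,000 UMIs in the low and 16.4 in the high group of tumour 1, 25.5 and 38.3 for tumour 4, and 45.7 and 47.3 for tumour 2. Of 18 astrocyte genes 4 were called higher, the gap-junction gene Gja1, Sox9, Clu and Aldoc, while the summed level went from 10.2 to 15.1 in tumour 1, from 31.3 to 53.4 in tumour 2 and from 20.3 to 17.1 in tumour 4. Over 3 tumours 0 of 11 and 0 of 12 members of these lists were called by edgeR or limma, with 4 and 2 higher at an unadjusted p under 0.05, and DESeq2 called 0 and 1. The neurofilament genes Nefl and Nefm and Stmn2 were called higher in tumours 1 and 4 out of 15 neuronal genes, Nefl by 1.89 ± 0.29 (edgeR adjusted p = 7.02e-08). At an unadjusted p under 0.05, 4 of the 15 were higher and 3 lower, with a median of 0.13. Over 3 tumours 0 of 13 neuronal genes were called by edgeR or limma and 1, higher, by DESeq2. There 3 were higher and 5 lower at an unadjusted p under 0.05, with a median of -0.45. With cells over the astrocyte marker limit left out before ranking, 0 genes were called over 3 tumours (243 at an unadjusted p under 0.05), with fold changes about as large, such as 4.07 ± 0.51 for Il33 and 2.83 ± 0.39 for Lgals3 on the log2 scale.

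Ependymal markers stood out in the high group of tumour 2. The sum of 9 ependymal markers was 58.2 CPM in the low and 2010 CPM in the high group of tumour 2, where 7 and 0 of the 9 were at 0 and Rarres2 reached 730 CPM, against 30.4 and 95.5 CPM for tumour 1 and 99.2 and 152 CPM for tumour 4. Few cells carried this signal in tumour 2: 62 of the 81 Rarres2 UMIs came from 1 cell (180 CPM without it). Of its 13 high cells 2 passed the ependymal limit. In the low and high group, 0 and 7 cells passed it in tumour 1, and 12 and 17 in tumour 4. The ependymal marker Tppp3, the only 1 tested in tumours 1 and 4, was called higher there (1.17 ± 0.23, edgeR adjusted p = 6.08e-05). T and NK cell markers were at 0 and 126 CPM in tumour 2 with 5 of 9 at 0 in the high group, and 3 of its 13 high cells passed a limit on non-neural markers. Of 12 endothelial markers 12 and 10 were at 0 in the low and high group of tumour 2. Without cells over the ependymal limit 29 genes were called higher and 9 lower, and without those over the non-neural limit 34 and 10, with all 13 genes kept both times. The haemoglobin genes Hbb-bs, Hba-a1 and Hba-a2 were called lower in tumours 1 and 4, with Hbb-bs at 2816 and 13.3 CPM in tumour 1, whose low group holds the haemoglobin barcode. In tumour 4 these genes had the opposite direction, at 0 and 34.8 CPM for Hbb-bs, 1.01 and 45.2 CPM for Hba-a1 and 0 and 50.8 CPM for Hba-a2.

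The transgene element WPRE was found in both groups. A WPRE UMI was present in 97.2% (exact binomial 95% interval 92.9 to 99.2) of low and 99.3% (96.1 to 100.0) of high cells in tumour 1, and in 93.4% (86.9 to 97.3) and 100% (96.6 to 100) in tumour 4. In tumour 2 it was present in 11 and 8 of 13 cells, and in the myeloid cells that the rule removes in 92.5%, 39.3% and 73.9% for tumours 1, 2 and 4 (median depths of 13611, 7231.5 and 9455 UMIs, against 9710 and 11908, 5162 and 5513, and 7841 and 7813 UMIs in the low and high groups). Shares were not thinned to a common depth, and no difference in expression is read from them. The level of WPRE was 563 and 594 CPM in tumour 1, 800 and 325 CPM in tumour 2, and 726 and 830 CPM in tumour 4 (log2 fold change -0.24 ± 0.28, edgeR adjusted p = 0.764). With cells without a WPRE UMI left out before ranking, 18 genes were called higher and 4 lower, the 13 genes among them.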

How the data were processed

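Whole-number UMI counts per gene and cell barcode were deposited by the authors for each of 3 tumours, without normalisation. STAR 2.5.1, Cell Ranger 1.3.0 with mm10 as the build, come from the submitters' processing notes; the rule for keeping barcodes as cells is not given in these notes. Members, gene lists and tests were chosen with earlier results of these data known.

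Counts were summed per tumour and group. Both groups of a tumour come from the same animal and library, which pairs them. The test was edgeR 4.0.16 (quasi-likelihood, TMM, 1 term per tumour, calls at a Benjamini-Hochberg p under 0.05, at least 10 UMIs per tumour), in R 4.3.3. Summed groups held 68738 to 1726911 UMIs, so low transcripts of tumour 2 were poorly measured. DESeq2 1.42.0, limma 3.58.1 and other settings were alternatives. On simulated counts of the 3002 genes the 3-tumour test recovered 68 of 100 genes changed by 1 on the log2 scale and 100 of 100 changed by 2, and called 0 of 2802 unchanged genes. These counts were drawn at 1 dispersion, 0.0317, for all genes, so recovery of genes with a wider spread was not tested. In the real sums Gja1 (log2 fold change 3.03 ± 0.90, edgeR adjusted p = 0.219) and Nefl (2.22 ± 0.46, 0.0763) were not called over 3 tumours. How the test behaves when 1 barcode gives a large share of a sum, as in tumour 2, was not tested.

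By a set rule, the text names up to 12 genes per direction with the largest changes among called genes. These had a mean of at least 20 CPM and moved alike in all 3 tumours. The rule adds up to 3 called members per list and direction, the 2 most abundant members per list, the ranking genes and a few model genes. It was also applied to the fit of tumours 1 and 4, for genes that moved alike in both. Some of those genes are named, such as Areg. Aldoc, Cd151, S100a13 and the peptide and Ly6 genes of the closing section fall outside it or were chosen after their values were seen. A called gene is not reported here. Symbols shared by several identifiers (121 of 27999 entries) were left out of lists. Intervals for shares are exact binomial and cover counting error only. Positions are from GENCODE and promoters from RefSeq, both GRCm38. Ages, animals and libraries cannot be told apart between tumours.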

Additional observations from a re-analysis of the deposited data

How the results depend on the processing

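All 13 genes called over 3 tumours kept their direction under every alternative in which they could be tested. Against 10 genes higher and 3 lower, edgeR gave 2 and 0 with library size alone, 124 and 39 with no filter on low counts, 0 and 0 with at least 30 UMIs per tumour, 16 and 2 with the top and bottom 25% of cells, 2 and 0 with 5% each, 8 and 7 with cells thinned to 2000 UMIs, 22 and 5 when ranked within bins of depth, 4 and 1 with at most 10% mitochondrial UMIs, and 0 and 0 with a myeloid limit of 3. DESeq2 gave 23 and 7, and limma 0 and 0 (250 at an unadjusted p under 0.05). With no replicate block, so that the pairing of groups within a tumour is ignored, 0 and 0 were called (108 unadjusted). Leaving out cells before ranking gave 34 and 10 without non-neural markers, 0 and 0 without astrocyte markers, and 0 and 0 without the 5% of cells with most UMIs. Alternatives added after seeing the data gave 18 and 4 in cells with a WPRE UMI, 29 and 9 without ependymal markers, 10 and 3 without the haemoglobin barcodes, 5 and 3 without the deepest barcode of tumour 2, and 175 and 58 in tumours 1 and 4 without the haemoglobin barcodes. Leaving out 1 tumour gave 0 to 173 higher and 0 to 65 lower. For ranking genes left out of the score, leaving out 1 tumour gave log2 fold changes of 0.97 to 1.36 for Lgals1, 1.68 to 2.69 for S100a11, 0.65 to 1.20 for Vim, 1.63 to 2.21 for Anxa2, 1.35 to 3.09 for Tm4sf1 and -0.49 to 0.36 for S100a6, which was 0.05 without tumour 1 and 0.36 without tumour 2 and so changed sign. Settings differ in the genes and cells tested; the cause was not tested further. Depth limits tumour 2 most, where 1 UMI in the low group is worth 14.5 CPM.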

Other observations

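Penk, Npy and Nts, 3 secreted peptide genes outside the lists, were called higher in the high group of tumours 1 and 4 (edgeR adjusted p, 2 pairs). They were picked after their values were seen, and no set of such genes was tested. Penk, the precursor of enkephalins, was at 35.2 and 146.5 CPM in the low and high group of tumour 1 and at 48.6 and 162 CPM for tumour 4, with a log2 fold change of 1.94 ± 0.22 (adjusted p = 1.42e-14). Npy, which encodes neuropeptide Y, was at 5.52 and 7.53 CPM and at 20.2 and 101.6 CPM (1.94 ± 0.36, edgeR adjusted p = 1.29e-05), so most of its difference lay in tumour 4. Nts, the neurotensin precursor, was at 1.38 and 27.8 CPM and at 4.05 and 15.1 CPM (3.12 ± 0.55, edgeR adjusted p = 5.15e-06). Npy and Nts had 0 UMIs in both groups of tumour 2.

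The surface protein gene Ly6a, known as Sca-1, was at 64.9 and 361 CPM in tumour 1 and at 44.5 and 258 CPM for tumour 4 (2.53 ± 0.24, edgeR adjusted p = 1.02e-22). Its relative Ly6c1 was at 11.04 and 52.1 CPM and at 6.07 and 38.6 CPM (2.39 ± 0.35, edgeR adjusted p = 7.27e-09). Areg, which encodes the epidermal growth factor receptor ligand amphiregulin, was at 16.6 and 52.1 CPM and at 24.3 and 119 CPM (2.04 ± 0.28, edgeR adjusted p = 2.09e-10).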
